A study of Homo sapiens with 6 samples.

Results

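AP-1 is a transcription factor built from pairs of basic leucine zipper (bZIP) proteins, most often one of the FOS family and one of the JUN family. JUN proteins can pair with each other, whereas FOS proteins need a JUN partner to bind DNA. Several of these genes, such as FOS, FOSB, JUN and JUNB, together with EGR1, IER3 and MYC, are immediate early genes, whose transcripts rise soon after serum, growth factors or injury without new protein synthesis. FOSL1 rises later, and JUND is expressed widely in resting cells. The 10 genes studied here were FOS, FOSB, FOSL1 and FOSL2 (FOS family), JUN, JUNB and JUND (JUN family), and EGR1, IER3 and MYC. They were taken by gene name from the deposited table, which held each of them on 1 of its 58825 rows, and all 10 were among the 19510 genes tested, whose mean level reached 0.1 FPKM (a fragment count corrected for transcript length and library depth).

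The RNA came from HK-2, an established immortalized line derived from human kidney proximal tubule, and its poly(A) fraction was sequenced from both ends. The 3 Control libraries are labelled untreated, with no time given, and the 3 OX-LDL libraries came from cells given 25 μg/ml of oxidized low-density lipoprotein for 48 h. All 6 are libraries of 1 cell line. The study's methods describe starvation in low-serum medium before OX-LDL was added and do not say whether Control cells were starved too, so that serum history and OX-LDL cannot be told apart if they were not. No label says that the 3 libraries of a group came from separate cultures, so p-values measure the spread between these libraries only. Total counts ranged from 62561347 to 76797607 per library, at about 4 deposited counts per read pair. Where no library exceeded 12 counts, a gene was taken as not detected, a limit that covers counting error only. Among 10 markers of proximal tubule and epithelium, LRP2 was at 0 counts in all 6 libraries and CUBN, AQP1, SLC34A1 and ANPEP did not exceed 46 counts in any library. KRT8, KRT18 and EPCAM were well above the detection limit. GGT1 averaged at least 1 FPKM, and its highest Control library was 5.67 times its lowest on the FPKM + 0.1 scale. CDH1 exceeded the detection limit in at least 1 library and did not pass the test. The summed level of the list was 133 to 143 FPKM over the Control and 177 to 215 FPKM over the OX-LDL libraries, with KRT8 the 1 marker past the test. Leukocyte markers summed to 3.14 to 7.74 FPKM over the Control and 9.16 to 14.0 FPKM over the OX-LDL libraries. PTPRC and LYZ were not detected, so the sum came almost wholly from CD68 and CD14. No leukocyte marker passed the test. Endothelial markers summed to at most 0.0959 FPKM in any library, and those of fibroblasts and pericytes summed to 10.1 to 11.99 and 8.73 to 14.1 FPKM, with COL1A2 not detected. The part of these markers in the results was not tested. In RNA from whole cultures, fewer cells that express a gene and less of its RNA per cell cannot be told apart.

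Promoter sequences were searched for 7 of the 10 genes. FOSL1 and IER3 had no promoter entry in the reference used, and MYC was left out of the search by choice. JUN and JUNB are shown because these close relatives moved in opposite directions, and EGR1 because its promoter holds the binding site of serum response factor (SRF), the CArG box, which is typical of immediate early genes. Each stretch is the 250 bases before the RefSeq transcription start, 5′ to 3′ on the strand of the gene, from RefSeq on GRCh38.p14. Capitals mark matches on either strand to the sites searched, which were the cAMP response element TGACGTCA, the JUN site TGACATCA, the AP-1 site TGANTCA, the CArG box, the EGR1 site GCGNGGGCG and the MYC E-box CACGTG.
JUN (chr1:58784048-58784297, minus strand): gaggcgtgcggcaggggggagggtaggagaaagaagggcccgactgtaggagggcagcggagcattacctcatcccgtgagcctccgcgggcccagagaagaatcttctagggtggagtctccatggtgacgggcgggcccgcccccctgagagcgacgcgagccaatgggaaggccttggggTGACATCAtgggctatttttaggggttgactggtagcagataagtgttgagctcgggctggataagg
JUNB (chr19:12791236-12791485, plus strand): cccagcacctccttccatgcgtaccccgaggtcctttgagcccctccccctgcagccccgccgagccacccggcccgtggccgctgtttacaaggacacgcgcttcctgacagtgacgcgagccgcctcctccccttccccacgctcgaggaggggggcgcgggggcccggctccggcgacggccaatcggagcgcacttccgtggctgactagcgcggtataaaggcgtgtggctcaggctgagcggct
EGR1 (chr5:138465229-138465478, plus strand): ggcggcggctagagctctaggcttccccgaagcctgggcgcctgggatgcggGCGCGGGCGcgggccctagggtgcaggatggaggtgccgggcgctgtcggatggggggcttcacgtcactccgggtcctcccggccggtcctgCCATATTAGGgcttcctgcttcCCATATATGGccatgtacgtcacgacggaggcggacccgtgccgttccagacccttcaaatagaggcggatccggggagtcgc
RefSeq places the starts of JUN and FOSL2 further downstream than the deposited table does, so that their windows lie inside the genes as the table bounds them. The JUN site lay 67 bases before the RefSeq start of JUN, and 2.45% of the 27305 promoters of this length hold that site. No match to the 6 sites lay in this window of JUNB. EGR1 had 2 CArG boxes, whose first bases were 105 and 83 bases before the start and which 1.14% of promoters hold, and 1 EGR1 site (8.25% of promoters). JUND had 1 cAMP response element, 200 bases before its start (1.77% of promoters). FOS, FOSB and FOSL2 had no match in the window, and bases further upstream, where such sites can also lie, were not searched. The AP-1 site is found in 6.60% and the E-box in 6.49% of promoters. A match is a run of letters, not a measured binding site.

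JUN was lower and JUNB and FOSL1 were higher in the cells given OX-LDL. JUN, the main activating subunit of AP-1, fell to 0.491 of its Control level, while JUNB, a weaker activator that can oppose JUN, rose 1.56-fold and FOSL1, the FOS family member that encodes FRA-1, rose 1.75-fold. Of the 6 fits that left out 1 library, JUN passed in 6, FOSL1 in 2 and JUNB in 1. The other 7 genes did not pass the test, among them FOS and FOSB, which were close to the bottom of the range in both groups, and MYC and JUND, whose libraries differed widely within a group. OX-LDL was sampled at 48 h only, so a rise of these genes that had ended by then would not be seen. Thus 3 of 10 genes passed edgeR's quasi-likelihood test (adjusted p-value below 0.05), against a background of 15.3% of all genes tested. When only the 12259 genes averaging 1 FPKM or more were fitted, 3152 passed, a larger share than 15.3%. This limit also applies to the shares of the gene lists below. The members and lists were chosen with earlier results of these data known, so shares above the background cannot be read apart from that choice. By direction, 2 of the 10 genes rose, where 7.91% of all genes rose, and 1 fell, where 7.42% fell. JUN alone also passed the fold limits of 2 and 0.5, as did 3.91% of all genes. The libraries of the 2 groups did not overlap for 4 of the 10 genes (JUN, JUNB, FOSL1 and IER3), against 37.2% of all genes tested. Of these 4, 2 were higher (16.8% of all genes) and 2 lower (20.5%).

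**Figure D1:**
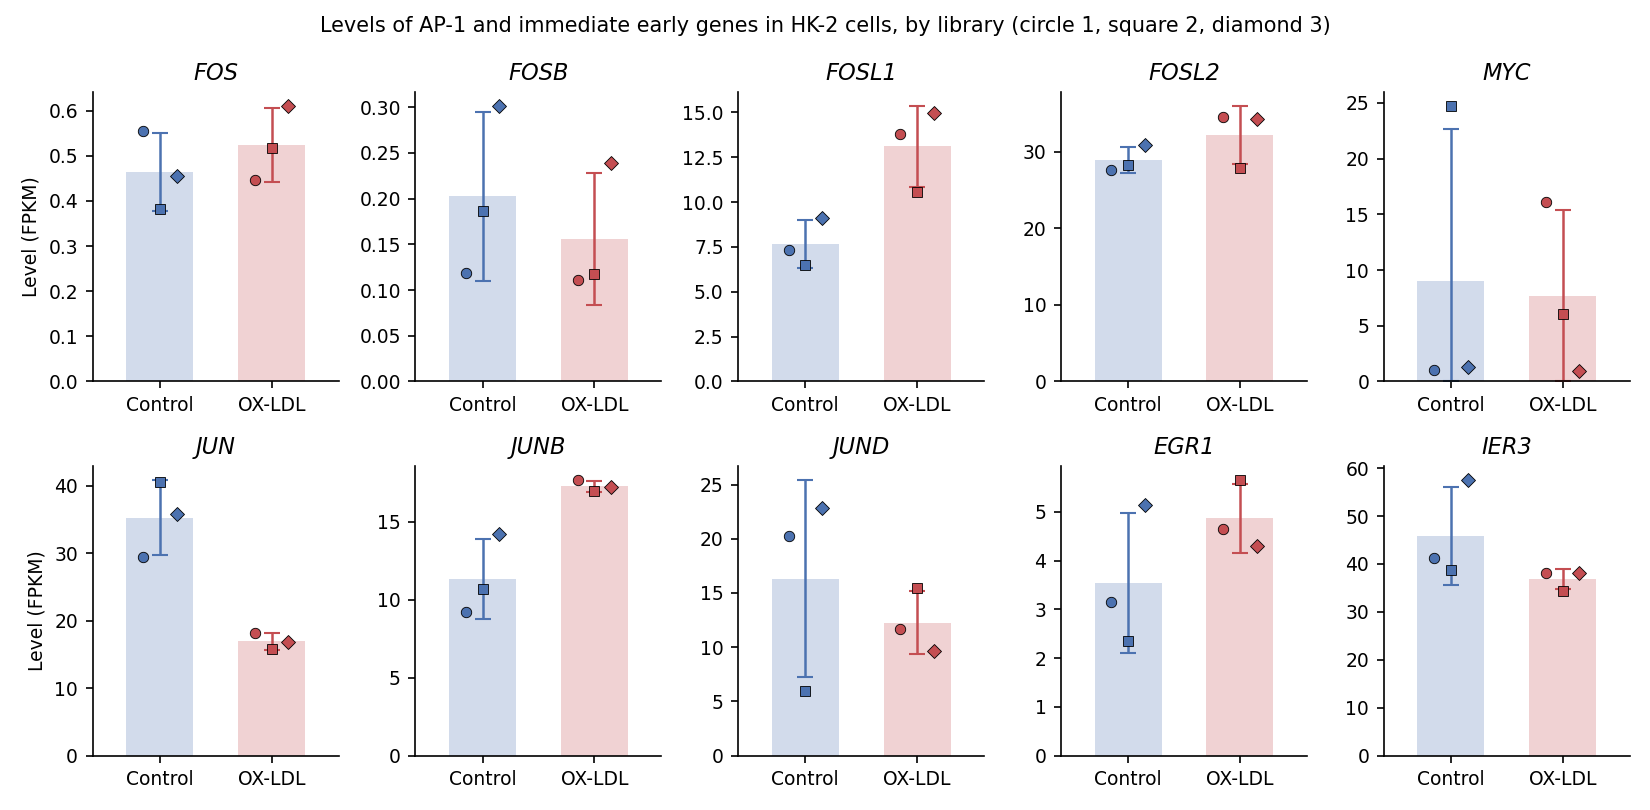
Level of each of the 10 genes in FPKM (linear axes from 0), with 1 symbol for each library, bars at the mean of 3 libraries and error bars of 1 SD, the lower ones drawn no further than 0. JUN lies between 29.4 and 40.5 FPKM in Control and between 15.8 and 18.2 FPKM in OX-LDL, whereas MYC spans 0.986 to 24.7 FPKM within Control alone.

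JUN (ENSG00000177606; chromosome 1, 58780788 to 58784327, minus strand, a gene of 1 exon that overlaps no other gene of the table) had 29.4, 40.5 and 35.9 FPKM in Control replicates 1 to 3 and 18.2, 15.8 and 16.8 FPKM in OX-LDL replicates 1 to 3. Every OX-LDL library was below every Control library. The means were 35.3 ± 5.57 and 16.9 ± 1.198 FPKM (± SD, n = 3 libraries each), and the log2 fold change (OX-LDL over Control) was -1.03 ± 0.12 (SE; edgeR, adjusted p = 0.0043). Its log2 fold change lay between -1.13 and -0.93 when each library was left out in turn, with adjusted p-values from edgeR of 0.0054 to 0.0264. Without Control replicate 2 (-0.93) or OX-LDL replicate 2 (-0.98) it was inside the fold limit. JUN rested on 9150, 12799 and 10340 counts without and 4747, 5072 and 5399 with OX-LDL.

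JUNB (ENSG00000171223; chromosome 19, 12791486 to 12793315, plus strand, also of 1 exon) had 9.19, 10.7 and 14.2 FPKM in the Control libraries and 17.7, 16.9 and 17.2 FPKM in OX-LDL. The OX-LDL libraries lay close together and above every Control library, while Control replicate 3 lay nearest to them. The means were 11.4 ± 2.57 and 17.3 ± 0.372 FPKM (± SD, n = 3 libraries each), with a log2 fold change of 0.64 ± 0.16 (SE; edgeR, adjusted p = 0.0400). In the fits of edgeR that left out 1 library, the adjusted p-value was 0.0866 without Control replicate 1, 0.130 without Control replicate 2, 0.0124 without Control replicate 3, and 0.112, 0.0739 and 0.113 without OX-LDL replicates 1, 2 and 3. Its log2 fold change stayed between 0.51 and 0.83 in these fits.

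JUND, which restrains growth in many cells, had 20.2, 5.95 and 22.8 FPKM in the Control libraries and 11.7, 15.4 and 9.63 FPKM in OX-LDL. Control replicate 2 was the lowest of all 6 libraries and Control replicates 1 and 3 were the highest, so the groups overlapped. The log2 fold change was -0.39, with a 95% interval of -1.50 to 0.73 that includes both a fall by more than 2-fold and a rise (adjusted p = 0.637 from edgeR). Without Control replicate 2 it was -0.79 (adjusted p = 0.0821 from edgeR). With any other library left out, it was -0.59 to -0.07 (adjusted p-values from edgeR of 0.534 to 0.947).

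Within the JUN family, JUNB was well below JUN in Control and about level with it in OX-LDL. The ratio of JUNB to JUN in FPKM was 0.312, 0.263 and 0.396 in Control and 0.973, 1.07 and 1.02 in OX-LDL, without overlap between the groups. The mean ratio was 0.324 ± 0.0669 in Control and 1.02 ± 0.0505 in OX-LDL (± SD, n = 3 libraries each; two-sided exact permutation test, p = 0.1, the smallest that 3 against 3 libraries allow). Because JUN was lower and JUNB higher in every OX-LDL library, the ratio could not overlap. Its p-value therefore adds nothing to the levels of JUN and JUNB. JUN made up 50.0%, 70.9% and 49.2% of the summed FPKM of the family in Control and 38.2%, 32.8% and 38.5% in OX-LDL. JUNB made up 15.6% to 19.5% in Control and 35.2% to 39.4% in OX-LDL. The family's sum was 57.1 to 72.9 FPKM over the Control and 43.7 to 48.1 FPKM over the OX-LDL libraries, without overlap (exact permutation p = 0.1, again the smallest possible). The share of JUND, at 10.4% to 34.4% and 22.1% to 32.0%, overlapped between the groups.

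FOSL1 (ENSG00000175592; chromosome 11, 65892049 to 65900526, minus strand, overlapping no other gene of the table) had 7.34, 6.52 and 9.14 FPKM in the Control libraries and 13.8, 10.6 and 15.0 FPKM in OX-LDL. The lowest OX-LDL library was above the highest Control library. The means were 7.66 ± 1.34 and 13.1 ± 2.26 FPKM (± SD, n = 3 libraries each), with a log2 fold change of 0.81 ± 0.18 (SE; edgeR, adjusted p = 0.0293). FRA-1 lacks the transactivation domain of FOS and is known for its late and sustained expression after stimulation. In the fits of edgeR with 1 library left out, the adjusted p-value of FOSL1 was 0.0843 without Control replicate 1, 0.0928 without Control replicate 2, 0.0909 without OX-LDL replicate 1 and 0.0965 without OX-LDL replicate 3. It was 0.0331 without Control replicate 3 and 0.0201 when OX-LDL replicate 2 was left out, and the log2 fold change stayed between 0.69 and 0.95.

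FOSL2, which encodes FRA-2, was the most abundant FOS family transcript. It had 27.6, 28.3 and 30.9 FPKM in the Control libraries and 34.5, 27.9 and 34.3 FPKM in OX-LDL, with OX-LDL replicate 2 inside the Control range. Its log2 fold change was 0.19, with a 95% interval of -0.05 to 0.42 and it did not pass (edgeR, adjusted p = 0.269). The gene overlaps ENSG00000270640 on its own strand, which had at most 17 counts in any library against at least 17379 for FOSL2, and an antisense gene (ENSG00000229951) with at most 18 counts. FOS, the founding member that pairs with JUN in the classical AP-1 dimer, had 0.556, 0.382 and 0.455 FPKM in the Control libraries and 0.447, 0.516 and 0.611 FPKM in OX-LDL, from 106 to 178 counts per library. The groups overlapped, and the log2 fold change of FOS was 0.20 (95% interval -0.41 to 0.80, adjusted p = 0.666 from edgeR). FOSB, which overlaps ERCC1 on the other strand, had 0.119, 0.186 and 0.302 FPKM in the Control libraries and 0.111, 0.117 and 0.239 FPKM in OX-LDL, from 47 to 138 counts. It was above the detection limit in every library, yet its 95% interval of -1.42 to 0.76 around a log2 fold change of -0.33 includes a fall of over 2-fold. ERCC1 had 1919 to 2644 counts per library and the strand setting of the counting is not given, so reads of FOSB and ERCC1 where they overlap cannot be told apart.

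FOSL2 and FOSL1 together accounted for nearly the whole FOS family. FOS made up 0.915% to 1.56% of the summed FPKM of the family over the 6 libraries and FOSB 0.228% to 0.738%. The share of FOSL1 was 20.6%, 18.4% and 22.4% in Control and 28.2%, 27.1% and 29.8% in OX-LDL, and the groups did not overlap (two-sided exact permutation test, p = 0.1, the smallest possible). The ratio of FOSL1 to FOSL2 in FPKM was 0.264 ± 0.0327 in Control and 0.405 ± 0.0282 in OX-LDL (± SD, n = 3 libraries each; exact permutation p = 0.1). The sum of the family, at 35.4 to 40.8 FPKM over the Control and 39.1 to 50.1 FPKM over the OX-LDL libraries, overlapped, with OX-LDL replicate 2 inside the Control range (exact permutation p = 0.2).

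**Figure D2:**
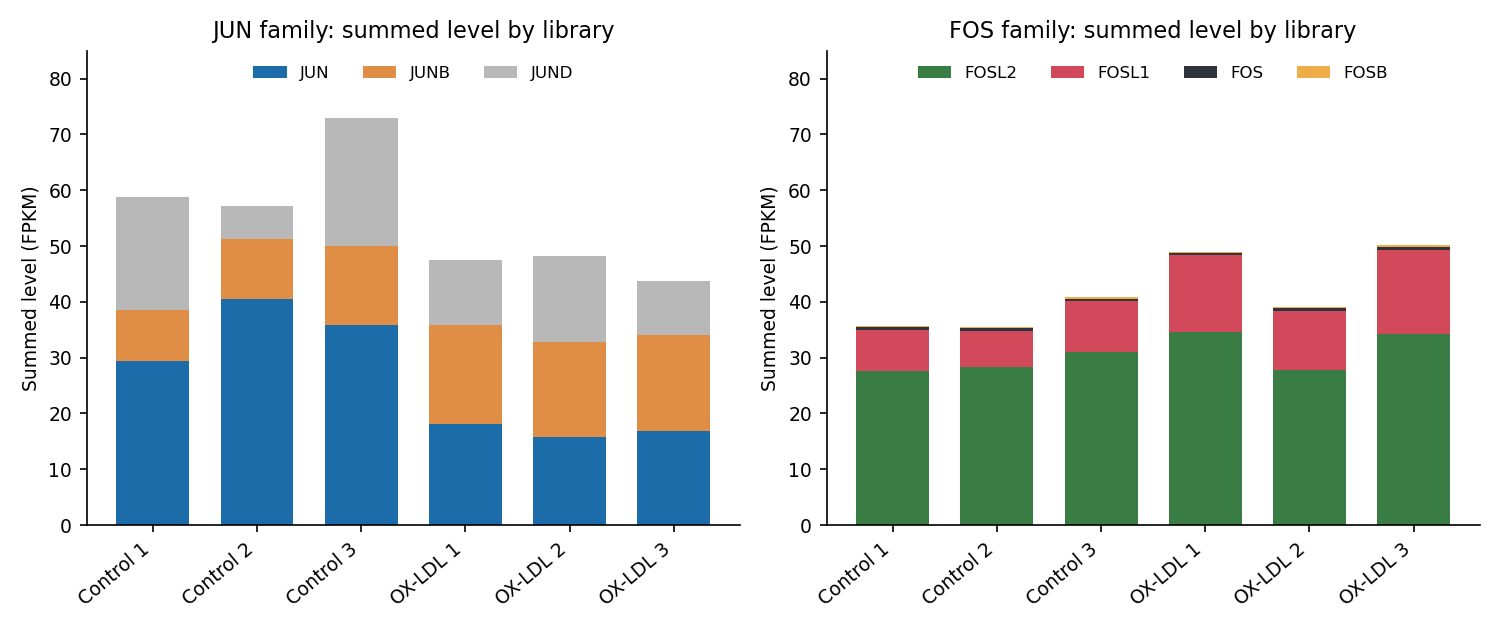
Summed level in FPKM of the JUN family (JUN, JUNB, JUND) and the FOS family (FOSL2, FOSL1, FOS, FOSB) in each of the 6 libraries, with each gene's part stacked. JUNB takes 15.6% to 19.5% of the JUN family in Control and 35.2% to 39.4% in OX-LDL, and FOS and FOSB are thin slivers of the FOS family in every library.

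EGR1, a zinc finger activator whose promoter is printed above, had 3.15, 2.34 and 5.14 FPKM in the Control libraries and 4.66, 5.65 and 4.29 FPKM in OX-LDL. Control replicate 3 lay inside the OX-LDL range and both other Control libraries below it. The log2 fold change of EGR1 was 0.49 (95% interval -0.20 to 1.17, adjusted p = 0.310 from edgeR), and it was 0.86 without Control replicate 3 (adjusted p = 0.0573 from edgeR). With any other library left out, it was 0.26 to 0.57 (adjusted p-values from edgeR of 0.356 to 0.580). IER3, a small protein that modulates cell survival and NF-κB signalling, had 41.2, 38.7 and 57.5 FPKM in the Control libraries and 38.2, 34.4 and 38.0 FPKM in OX-LDL. All OX-LDL libraries were below all Control libraries, but by as little as 0.557 FPKM between the nearest pair. Its log2 fold change was -0.28 (95% interval -0.65 to 0.09, adjusted p = 0.281 from edgeR), and it overlaps IER3-AS1, which had at most 31 counts per library, on the other strand.

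MYC, the growth regulator that binds E-boxes as a dimer with MAX, had 0.986, 24.7 and 1.26 FPKM in the Control libraries and 16.1, 6.04 and 0.978 FPKM in OX-LDL. Control replicate 2 and OX-LDL replicate 1 were high, while Control replicates 1 and 3 and OX-LDL replicate 3 were near 1 FPKM. Its counts were 402, 10120 and 473 without and 5444, 2517 and 411 with OX-LDL. The highest Control library was 22.9 times the lowest on the FPKM + 0.1 scale, a ratio exceeded by 37 of the 12259 genes averaging 1 FPKM or more, whose median ratio was 1.19. In OX-LDL the ratio was 15.0, exceeded by 45 genes. The log2 fold change of MYC was -0.18 with a 95% interval of -3.43 to 3.06 (adjusted p = 0.948 from edgeR), and without Control replicate 2 it was 2.78 (adjusted p = 0.194 from edgeR), so that no direction can be given. The table assigns 12 transcripts to MYC, against 1 each to JUN, JUNB and EGR1, 10 to FOS and 13 to FOSB. The part of transcript assignment in this spread was not tested.

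Genes that MYC is known to activate were compared between the same libraries of a group. Control replicate 2 exceeded the mean of the other Control libraries by 4.35 for MYC on the log2(FPKM + 0.1) scale, while the median difference over 19 tested MYC target genes was 0.03 (range -0.40 to 0.63), beside 0.02 over all genes tested. OX-LDL replicate 1 exceeded OX-LDL replicate 3 by 3.91 for MYC, with a median of 0.01 over the 19 target genes (range -0.48 to 0.34) and 0.01 over all genes. JUND was the other gene with a wide spread, its highest Control library being 3.79 times the lowest, a ratio exceeded by 1.68% of the same genes. In OX-LDL the ratio of JUND was 1.59, exceeded by 13.8%.

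**Figure D3:**
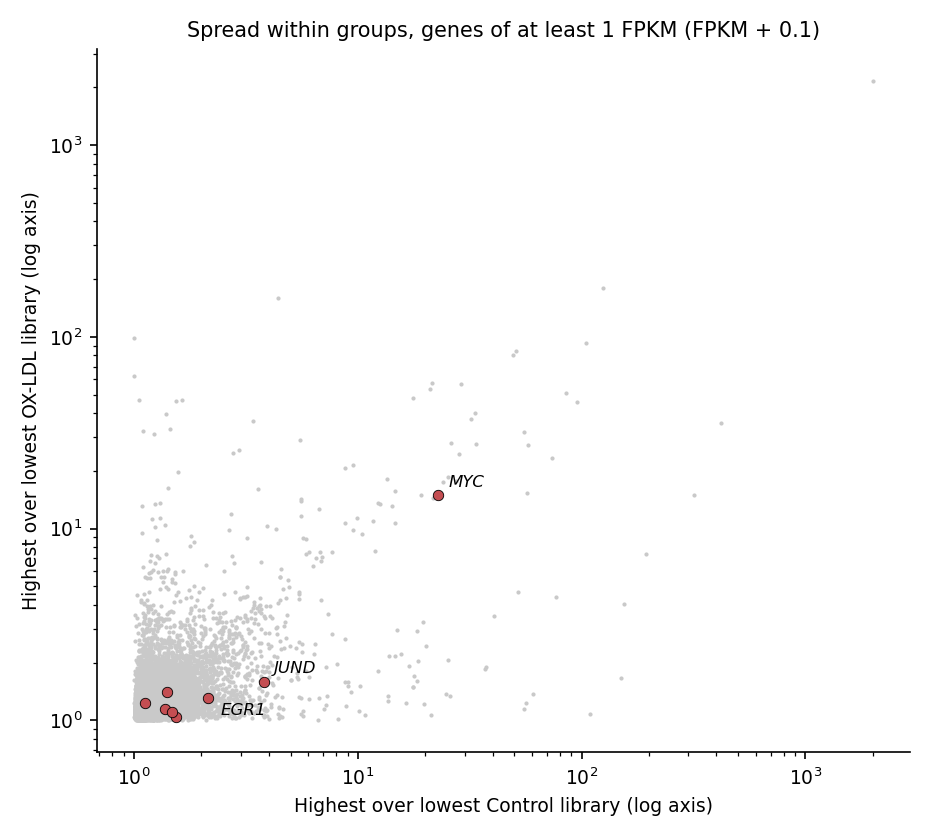
Ratio of the highest to the lowest library within Control (horizontal, log axis) and within OX-LDL (vertical, log axis) on the FPKM + 0.1 scale for the 12259 genes averaging 1 FPKM or more (grey), with 8 of the 10 genes studied in red and MYC, JUND and EGR1 named. MYC lies far from the other 7 red points, at 22.9 and 15.0, where the medians of all genes are 1.19 and 1.197.

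**Figure D4:**
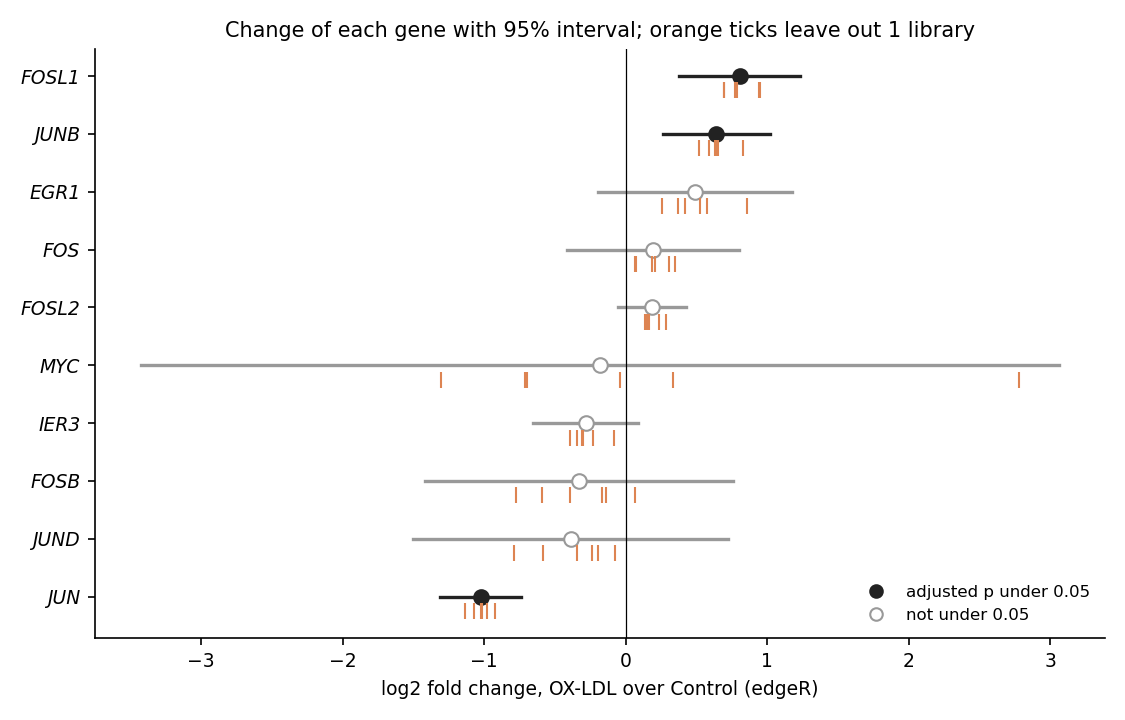
Log2 fold change of each gene (OX-LDL over Control, edgeR) with its 95% interval, filled where the adjusted p-value was under 0.05, and orange ticks for the 6 fits that left out 1 library. The ticks of JUN stay between -1.13 and -0.93, those of FOSL1 between 0.69 and 0.95 and those of JUNB between 0.51 and 0.83, whereas those of MYC run from -1.31 to 2.78.

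In Control, the order of the mean levels per length was IER3, JUN, FOSL2, JUND, JUNB, MYC, FOSL1, EGR1, FOS and FOSB. IER3 and JUN overlapped in range, as did JUN and FOSL2, and each of JUND, JUNB and MYC overlapped with the next, whereas FOSL2, FOSL1, EGR1 and FOS were each separated from the gene below. After OX-LDL, JUNB (17.3 FPKM) stood beside JUN (16.9 FPKM) with overlapping ranges, and FOSL1 (13.1 FPKM) overlapped with JUND (12.3 FPKM). IER3 and FOSL2 were the highest in that group and overlapped. The 3 other genes of at least 1 FPKM whose log2 levels were most like those of JUN over the 6 libraries were PCCA-DT (Pearson r = 0.999), ZNF330 (0.998) and RBM18 (0.998), out of 12251 compared, of which 1291 had an r above 0.9. PCCA-DT, for example, had 8.12 ± 1.15 FPKM without and 4.201 ± 0.229 FPKM with OX-LDL (± SD, n = 3 libraries each).

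Other bZIP proteins that pair with FOS or JUN proteins were lower after OX-LDL or did not pass the test. Of 15 such genes, 13 could be tested, 4 fell and none rose. This is 30.8% against the background of 15.3%, which was larger among genes averaging 1 FPKM or more (3152 of 12259). The median log2 fold change was -0.59 beside -0.00 over all genes tested. ATF3, a stress-induced partner of JUN, fell from 4.10 ± 0.985 to 0.940 ± 0.360 FPKM (± SD, n = 3 libraries each; log2 fold change -2.09 ± 0.31 SE). JDP2, which pairs with JUN and represses AP-1 sites, fell from 5.08 ± 0.351 to 1.99 ± 0.175 FPKM (log2 fold change -1.32 ± 0.11 SE). The other genes that fell were ATF4, the effector of the integrated stress response (log2 fold change -0.59), and NFE2L2, which encodes the oxidative stress regulator NRF2 (log2 fold change -0.82). These 4 genes had adjusted p-values of 0.0012 to 0.0084 from edgeR and kept an adjusted p-value under 0.05 in each of the 6 fits that left out 1 library. In those fits, 4 to 5 of the 13 genes passed, with 0 to 1 higher and 4 to 5 lower. Of all genes, 1161 to 2943 passed there, against 2991 with every library.

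Other immediate early genes moved in both directions. Of 25 genes, 20 could be tested, 3 rose and 4 fell (35%, against 15.3% of all genes), with a median log2 fold change of -0.30, and 2 of the 25 were not detected in any library. SGK1, a serum- and steroid-induced kinase, rose from 4.27 ± 0.816 to 13.6 ± 0.124 FPKM (± SD, n = 3 libraries each; log2 fold change 1.70 ± 0.14 SE). KLF4, a zinc finger factor, fell from 3.64 ± 0.655 to 0.648 ± 0.127 FPKM (log2 fold change -2.44 ± 0.22 SE). ZFP36L1, which promotes decay of AU-rich transcripts, fell from 89.5 ± 3.76 to 56.2 ± 6.90 FPKM (log2 fold change -0.64), and GEM, a small GTPase, fell from 6.98 ± 0.502 to 5.02 ± 0.0729 FPKM (log2 fold change -0.44, adjusted p = 0.0331 from edgeR). GEM kept an adjusted p-value under 0.05 only in the fit without Control replicate 3 (0.0477) and had 0.0543 to 0.103 in the other 5. With 1 library left out, 3 to 5 of the 20 genes passed, the fewest when Control replicate 2 or either of OX-LDL replicates 1 and 3 was left out. In the 6 fits with 1 library left out, 1161 to 2943 of all 19510 genes passed, against 2991 with every library.

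Genes known as AP-1 targets moved in both directions. Of 20 genes, 18 could be tested, 7 rose and 4 fell (61.1%, against 15.3% of all genes), and the median log2 fold change was 0.20. CXCL8, a neutrophil chemokine, fell from 51.2 ± 12.7 to 11.7 ± 1.195 FPKM (± SD, n = 3 libraries each), and VEGFA, an angiogenic factor, fell from 18.8 ± 3.82 to 5.47 ± 0.603 FPKM (log2 fold change -1.75 ± 0.16 SE). HMGA1, a chromatin protein, fell from 75.4 ± 3.38 to 42.5 ± 7.78 FPKM, whereas the cytokine IL6 rose from 3.33 ± 0.113 to 5.44 ± 0.282 FPKM. Their adjusted p-values lay between 0.0018 and 0.0113 in edgeR and stayed under 0.05 with each library left out. With 1 library left out, 5 to 10 of the 18 genes passed, with 5 without OX-LDL replicate 3. In that fit 1163 of all genes passed, against 2991 with every library.

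The partners of MYC and its target genes were also split. Of 11 genes of the network of MYC, MAX and their relatives, 10 could be tested, 2 rose and 4 fell (60.0%, against 15.3% of all genes), with a median log2 fold change of -0.10. MAX, the partner that MYC needs to bind DNA, fell from 9.33 ± 1.36 to 6.40 ± 0.0672 FPKM, and MXD4, which competes with MYC for MAX, rose from 3.61 ± 0.0688 to 5.76 ± 0.810 FPKM (± SD, n = 3 libraries each). MXD4 (log2 fold change 0.71) passed in all 6 fits with 1 library left out. MAX (log2 fold change -0.51, adjusted p = 0.0265 from edgeR) passed in 1 of them, without Control replicate 1, and had 0.0552 to 0.0917 in the other 5. MGA (log2 fold change -0.40) and MXI1 (-0.45), which also pair with MAX, passed in 2 of 6 each. MGA had 0.0683 to 0.0820 in the 4 fits that lacked a Control library or OX-LDL replicate 1, and MXI1 had 0.107 to 0.131 when replicate 2 or 3 of Control, or 1 or 3 of OX-LDL, was missing. With 1 library left out, 1 to 3 of the 10 genes passed, with 1 without Control replicate 2 or 3. Of all genes, 1161 passed without Control replicate 2 and 1993 without Control replicate 3, against 2991 with every library. Of 20 MYC target genes, 19 could be tested, 3 rose and 3 fell (31.6%, against 15.3% of all genes), with a median log2 fold change of 0.01. LDHA, which converts pyruvate to lactate, rose from 91.7 ± 13.3 to 231 ± 9.43 FPKM, and GNL3, a nucleolar GTPase, rose from 23.9 ± 1.68 to 30.9 ± 0.472 FPKM. SLC16A1, a lactate transporter, fell from 59.4 ± 1.22 to 38.9 ± 4.39 FPKM, and CDK4, a cell cycle kinase, fell from 81.6 ± 21.8 to 43.6 ± 1.17 FPKM. GNL3 (adjusted p = 0.0185 from edgeR) had 0.0547 to 0.0655 when replicate 1 or 2 of Control, or 1 or 3 of OX-LDL, was missing, and CDK4 (0.0187) had 0.0727 without OX-LDL replicate 1 and 0.0675 without OX-LDL replicate 3. With 1 library left out, 2 to 6 of the 19 target genes passed, with 2 without OX-LDL replicate 1 or 3. Of all genes, 1262 passed without OX-LDL replicate 1 and 1163 without OX-LDL replicate 3.

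**Figure D5:**
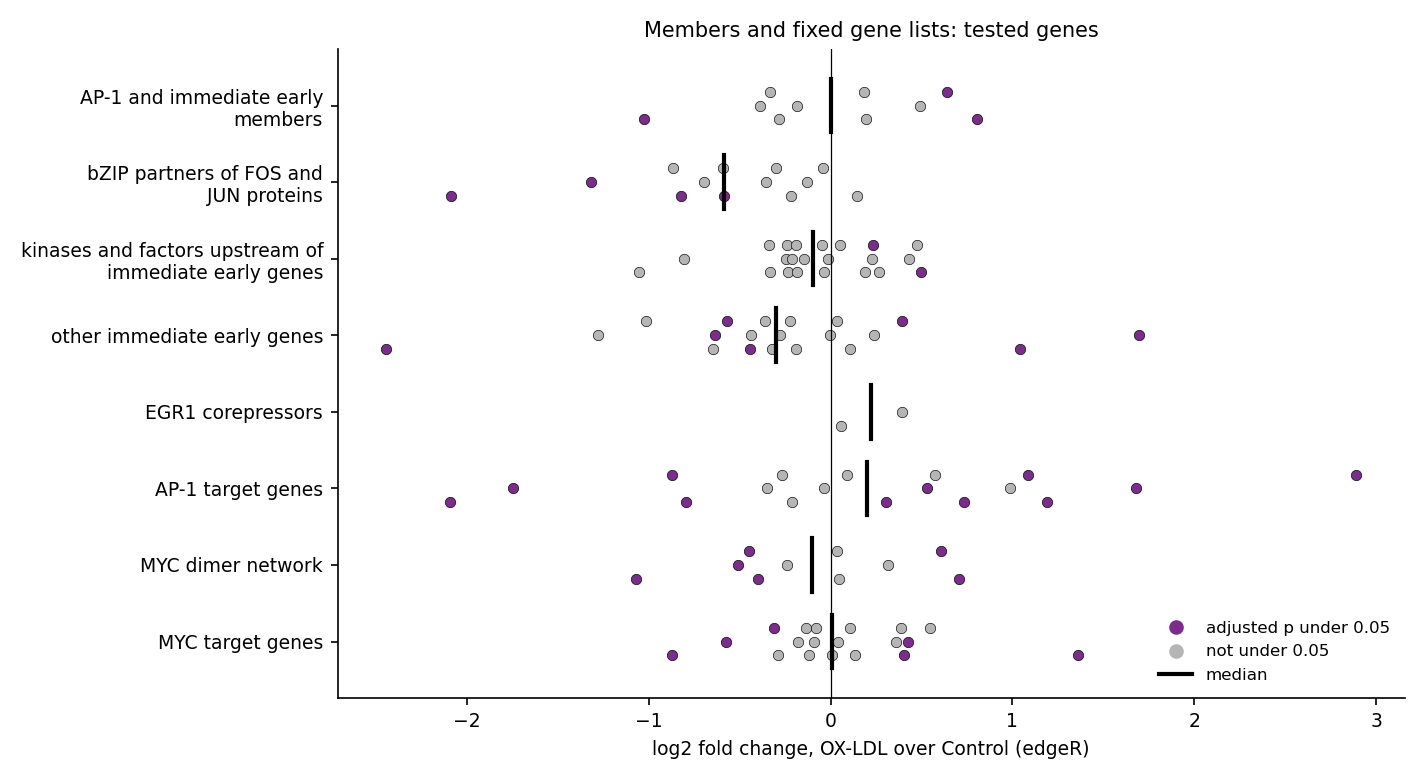
Log2 fold change (OX-LDL over Control, edgeR) of every tested gene among the 10 members and in each gene list, purple where the adjusted p-value was under 0.05, with a bar at the median of each list. The bZIP partners lie mostly left of 0, with a median of -0.59, while the AP-1 target genes spread to both sides around a median of 0.20.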

How the data were processed

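Poly(A) RNA of HK-2 cells was sequenced in 6 libraries, 3 Control and 3 OX-LDL, grouped by their labels. The authors deposited 1 table, which gives each gene an estimated count and an FPKM value in every library. The deposited estimated counts are whole numbers, not scaled for library size, and were used as they are. In the deposited FPKM values, transcript length and library size are already divided out. The submitters' processing notes name cutadapt 1.9, HISAT2 2.0.4, StringTie 1.3.4d, edgeR and DESeq2, and the build GRCh38, without roles, and give no strand setting for the counting. Positions are those of the table.

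The counts were fitted with edgeR (version 4.0.16, R 4.3.3; TMM factors, glmQLFit, glmQLFTest, group as the only term) on the 19510 genes whose mean reached 0.1 FPKM, with Benjamini-Hochberg adjustment across that whole set. The SE is the absolute log2 fold change divided by the root of its F statistic. The alternatives were DESeq2 (1.42.0), limma (3.58.1) on log2(FPKM + 0.1), + 1 and + 0.01, other normalization factors and filters, counts divided by 4, a replicate block and leaving out each library. On simulated counts for these 19510 genes, edgeR recovered 53% of 2-fold and 91% of 4-fold changes with 15 false calls. Only 100 genes were changed by each fold, a smaller share than was called in the data. All of them averaged at least 1 FPKM, so these rates do not cover genes as low as FOS and FOSB. Libraries of the same group were distinct (chi-square per gene of 14.3 to 24.8, counts divided by 4), so none was a copy.

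The members and lists were chosen with earlier results of these data known. All 10 members were named, and of each list the called genes with the 4 smallest p-values. For JUN, the called member with the largest change, the 3 genes closest in log2(FPKM + 0.1) were named as well. The values of 1 called gene of the upstream list are not reported here.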

Additional observations from a re-analysis of the deposited data

How the results depend on the processing

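FOS and FOSB rested on 47 to 178 counts per library, and the spread of MYC and JUND between libraries left their direction open. In 168 refits of single members, 150 kept direction and side of the threshold, 11 lost the call (4 of FOSL1, 7 of JUNB) and 7 turned the direction (6 of MYC, 1 of FOSB). MYC had a log2 fold change of 0.52, 0.35 and 0.54 in limma on log2(FPKM + 0.1), + 1 and + 0.01, 0.29 with the replicate block, and -1.31 to 2.78 with 1 library left out. FOSB ranged from -0.77 to 0.067 there. The number of members called was 1 to 3 with 1 library left out, where JUN was the one kept in each fit, and 0 to 1 with the fold limits added. The number of all genes called, 2991, was 1161 to 2943 with 1 library left out and 1636 with the replicate block. The block left 2 of 10 members, since JUNB had an adjusted p-value of 0.0650 in edgeR with it, and changed no other member's call. Without a minimum level, JUNB had 0.0569 and 2 members were called. The labels say nothing of a link between equal numbers. Deviations of equally numbered libraries correlated by -0.041, -0.0031 and 0.036, and not every library correlated best with its own number. With 3 libraries in each group, these values cannot decide whether equally numbered libraries shared a culture or batch. In limma and DESeq2 the same 3 members were called. The causes of these changes were not tested.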

Other observations

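The kinases and factors that act upstream of immediate early genes were mostly not called. Of 22 genes, all could be tested, 2 rose and none fell (9.09%, against 15.3% of all genes tested), with a median log2 fold change of -0.10. MAP2K1, which encodes the kinase MEK1, rose from 12.05 ± 0.874 to 16.7 ± 0.510 FPKM (± SD, n = 3 libraries each; log2 fold change 0.50, adjusted p = 0.0106 from edgeR). With 1 library left out, 1 to 3 of the 22 genes passed, with 1 when any Control replicate or OX-LDL replicate 1 was left out. In those fits with 1 passing, 1161 to 1993 of all genes passed, against 2991 with every library. Of the 2 EGR1 corepressors, NAB1 and NAB2, neither passed edgeR's test, 1 had an unadjusted p-value under 0.05, and the median log2 fold change was 0.22.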
